A study of Mus musculus with 6 samples.

Results

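Respiratory complex I is represented here by the genes whose symbol begins with Nduf, the nuclear genes for its subunits and for a set of factors that assemble it. The members were all such genes that had a probe of their own on the array, pseudogene symbols left out, and numbered 42 of 22180 genes tested. Of these, 32 encode subunits, 8 are assembly factors named Ndufaf, and 2, Ndufa4 and Ndufa4l2, carry the family name without being subunits of the complex. Other genes of the family, and the subunits encoded in mitochondrial DNA, were not analysed here.

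Complex I takes electrons from NADH, passes them along a chain of iron-sulfur clusters to ubiquinone, and pumps protons across the inner mitochondrial membrane. It is L-shaped. The N module at the tip of the hydrophilic arm binds NADH, the Q module below it hands electrons to ubiquinone, and the membrane arm, divided into a proximal and a distal part, carries the pumps. Core subunits are conserved from bacteria and hold the cofactors, while accessory subunits surround them, and assembly factors help to build the complex without staying in it. Heart muscle relies on it for most of its ATP, and mitochondria multiply as the heart matures after birth.

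Total RNA from mouse hearts was hybridised to 6 Affymetrix arrays, 1 heart sample each. The 3 control hearts had the genotype Nkx2.5-Cre, a Cre recombinase made in cardiac progenitors and their descendants. The 3 transgenic hearts, Nkx2.5-Cre; R26R-miR302-367, carried the same Cre and in addition a copy of the miR-302-367 microRNA cluster at the Rosa26 locus that Cre switches on. All mice were of a mixed C57BL/6 x 129S6 background. The labels disagree on age. The source name and the harvest protocol give postnatal day 14, and the age field gives E14. By its title, the series is about the cluster's role in the division and maturation of cardiomyocytes. Nothing in the labels states that each sample was a separate animal. The p-values therefore set the group differences only against the variation among these samples, and some of that variation may be technical.

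Values are log2 expression values as deposited. Differences are transgenic minus control on that log2 scale, and a gene is said to have risen or fallen only where limma gave an adjusted p under 0.05 over all genes tested. In all, 1278 genes (5.76%) fell and 1187 (5.35%) rose. Array medians lay between 5.45 and 5.54, and within a group the arrays had correlations of 0.982 to 0.989 across probes. The heart markers Myh6, Tnnt2 and Actc1 had control means of 12.67, 13.38 and 13.45. None of the 10 cardiomyocyte markers passed the limma test (2 were higher and 0 lower at an unadjusted p under 0.05), with differences from -0.11 to 0.28. Other cell types moved more. Macrophage markers fell in 7 of 8, and their mean level went from a range of 7.06 to 7.17 in controls to 6.31 to 6.50 in transgenic hearts. Endothelial markers fell in 5 of 8, from 9.37 to 9.47 down to 8.97 to 9.15. Smooth muscle and pericyte markers fell in 4 of 7, from 9.32 to 9.40 down to 8.92 to 9.13. Of 8 fibroblast markers 1 rose, with mean levels of 9.02 to 9.19 and 9.17 to 9.26, and the 1 measured red blood cell marker had 6.76 to 6.83 and 6.83 to 6.95. With 1 array left out, the called endothelial markers numbered 1 to 4, the macrophage markers 5 to 6 and the pericyte and smooth muscle markers 2 to 4. The 1 fibroblast call was lost whichever array was left out. No marker had a value of 0 on this scale. The part of these cells in the results below was not tested, and in whole hearts fewer cells of a type cannot be told apart from less RNA per cell.

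Of the 42 members, 7 fell and 0 rose (limma; at an unadjusted p under 0.05, 11 were lower and 1 higher). The 7 were Ndufa4l2, Ndufa10, Ndufs1, Ndufaf1, Ndufv1, Ndufa13 and Ndufa9. With 1 array left out, the count of members that fell was 2 (without control 1, control 2 or transgenic 3), 3 (without transgenic 1 or 2) or 6 (without control 3). The 7 are 16.7% of the members, where 5.76% of all genes fell. Most members have bright probes, and bright probes were called more often. Among the brightest 5% of genes by mean value, 172 of 1109 (15.5%) fell, and of the 24 members in that class 5 (20.8%) fell. In the same class 8.03% of all genes and 0 of the 24 members rose, and the median difference was -0.02 for all genes of the class and -0.09 for the members. Among the 9418 genes at least as bright as the dimmest Nduf subunit 10.6% fell, against 15.6% of the 32 subunits. The members' share of falls was thus above that of all genes by less once brightness was matched, and the remaining gap was not tested. The groups did not overlap, with all transgenic values the lower, for 17 members (40.5%), where all genes gave 16.7%. In the brightest 5% this held for 11 of the 24 members (45.8%) and for 389 of 1109 genes (35.1%). In the other direction it held for 4 members (9.52%), where all genes gave 14.2%. The median difference was -0.08 over all members and -0.03 over all genes tested.

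**Figure D1:**
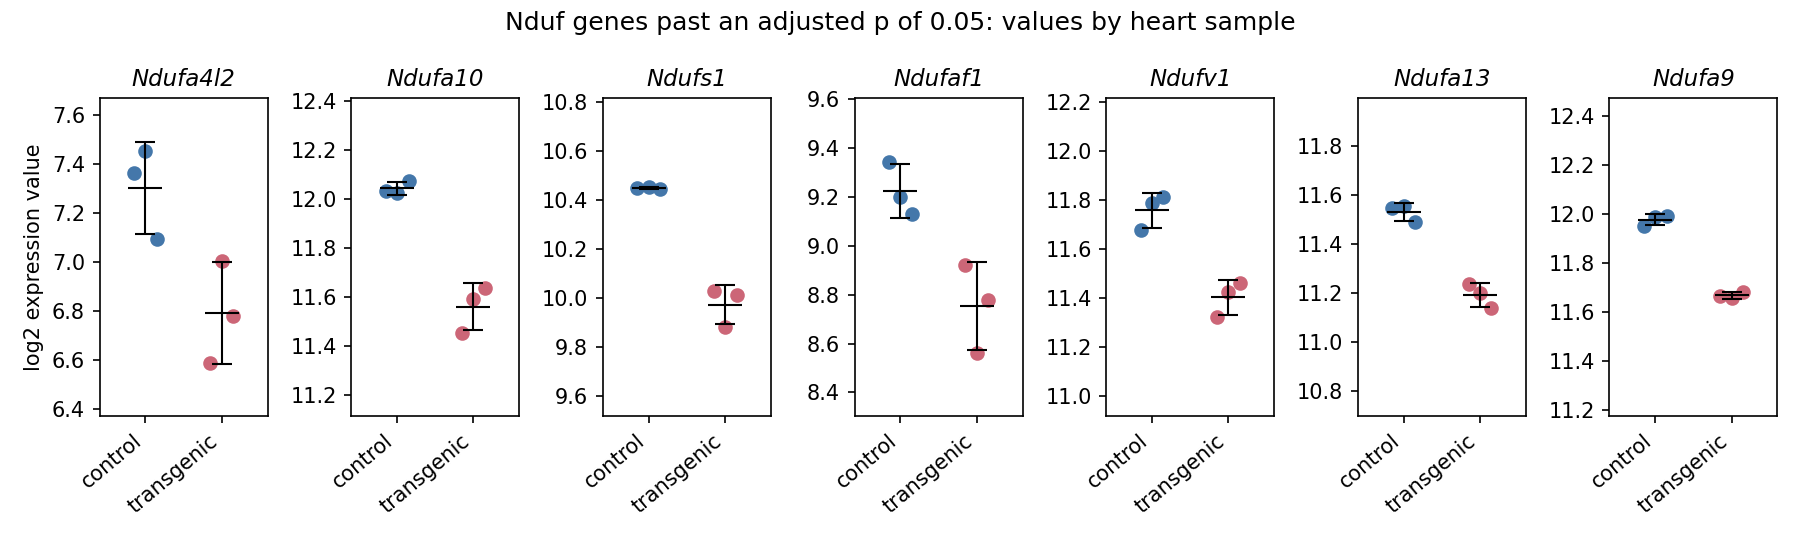
Log2 expression values (vertical axis, a different range but the same span in each panel) of the 7 Nduf genes that fell, with 1 point per heart sample and the mean ± SD of 3 samples in black. In every panel the 3 transgenic samples lie below the 3 control samples, by a wide margin for Ndufs1, Ndufa10 and Ndufa9 and a narrow one for Ndufa4l2.

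In the N module, the fall was seen in 2 of the 3 core subunits. Of all genes 5.76% fell, and of the brightest 5% of genes 15.5% fell. Ndufs1, the large core subunit that holds several iron-sulfur clusters, had values of 10.45, 10.45 and 10.45 in the controls and 10.03, 9.88 and 10.01 in the transgenic hearts. The controls were almost identical and every transgenic heart was lower. The difference was -0.48 with an SE of 0.084 (95% interval -0.67 to -0.29, limma adjusted p = 0.00861), which leaves 71.9% of the control level. Ndufs1 passed the test in all 14 alternative analyses, with adjusted p-values from 0.000532 to 0.0441. A further probe that Ndufs1 shares with the gene Ino80dos was not used.

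Ndufv1, which binds the flavin that receives electrons from NADH, had 11.68, 11.79 and 11.81 in the controls and 11.32, 11.43 and 11.46 in the transgenic hearts. The groups did not overlap and each spread over a similar range. The difference was -0.36 (SE 0.087, limma adjusted p = 0.0336), or 78.2% of the control level. This call was lost without any 1 of the 6 arrays, with adjusted p = 0.0608, 0.0807 and 0.0668 without control 1, 2 and 3, and 0.122, 0.0973 and 0.0690 without transgenic 1, 2 and 3. Renewed quantile normalization also ended it (0.0646). Ndufv2, the third core subunit of the module, which holds a further iron-sulfur cluster, had a difference of -0.06 (95% interval -0.26 to 0.14) and overlapping groups.

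The 6 measured accessory subunits of the N module went both ways, and 0 passed the limma test (at an unadjusted p under 0.05, 1 was lower and 1 higher). Ndufa2, a small subunit with a thioredoxin-like fold, had 9.85, 9.94 and 9.69 in the controls and 9.59, 9.55 and 9.42 in the transgenic hearts. All transgenic values were lower (difference -0.31, limma adjusted p = 0.0838). Without control 3, the lowest control, Ndufa2 passed (difference -0.38, adjusted p = 0.0461). In all, Ndufa2 passed in 3 of the 14 alternatives, with adjusted p up to 0.228. Ndufa7 was the member with the highest difference of all 42, at 0.43 (SE 0.14, limma adjusted p = 0.0821). Its controls were 10.17, 10.22 and 9.71 and its transgenic values 10.48, 10.41 and 10.49, so control 3 lay far below the other controls. Ndufa7 passed in 2 of the 14 alternatives, renewed quantile normalization (adjusted p = 0.0457) and an intensity trend in the variance (0.0303). Over all 14 its difference ranged from 0.26 to 0.52, with adjusted p up to 0.197. Ndufs4, whose loss in mice gives a form of Leigh syndrome, had a difference of 0.05 (95% interval -0.16 to 0.25).

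For all 5 measured subunits of the Q module the 3 transgenic values lay below the 3 control values, and 1 subunit passed the test. Such a lower, non-overlapping pattern was found in 16.7% of all genes and in 35.1% of the brightest 5%. Ndufa9, an accessory subunit at the junction of the arms that binds NADPH, had 11.95, 11.99 and 11.99 in the controls and 11.67, 11.66 and 11.68 in the transgenic hearts. Both groups were tight and stood clearly apart. The difference was -0.31 (SE 0.078, limma adjusted p = 0.0374), or 80.7% of the control level. Leaving out any 1 array ended the call, with adjusted p = 0.0920, 0.0833 and 0.0632 for control 1, 2 and 3 and 0.113, 0.120 and 0.0928 for transgenic 1, 2 and 3. It was also lost with centred arrays (0.0520), and with renewed quantile normalization the difference shrank to -0.17 (0.202).

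The 3 measured core subunits of the Q module followed with smaller values, and 0 passed the limma test (2 were lower at an unadjusted p under 0.05). Ndufs8, which holds iron-sulfur clusters on the path to ubiquinone, had 11.83, 11.83 and 11.73 in the controls and 11.47, 11.49 and 11.57 in the transgenic hearts, a difference of -0.29 (limma adjusted p = 0.0586). It passed in 3 of the 14 alternatives, with the dimmest genes left out (0.0336), with array weights (0.0332) and with an intensity trend (0.00405). Over all 14 the Ndufs8 difference ranged from -0.32 to -0.20, with adjusted p up to 0.175. Ndufs3, a core subunit with no cluster of its own, had a difference of -0.25 (limma adjusted p = 0.0899). Ndufs7, which holds the last cluster before ubiquinone, had -0.13 (limma adjusted p = 0.359). Ndufa5, an accessory subunit, had -0.22 (limma adjusted p = 0.220).

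Over both modules, the 6 measured core subunits all had negative differences, with a median of -0.27, and 5 of them did not overlap between the groups, a pattern held in this direction by 16.7% of all genes and 35.1% of the brightest 5%. The 26 accessory subunits of the whole complex, which include the 18 measured in the membrane arm, had a median of -0.07. Of these 26, 18 were negative, where 12567 of all 22180 genes were. Core and accessory subunits thus also differ in their place in the complex. Array by array, the mean level of the core subunits was 11.28, 11.29 and 11.25 in the controls and 11.02, 10.98 and 11.04 in the transgenic hearts. The mean over all 32 subunits was 10.46, 10.46 and 10.33 in the controls and 10.36, 10.28 and 10.32 in the transgenic hearts. Over all subunits control 3 thus lay within the transgenic range, which it did not for the core subunits. Subunits are not replicates of a condition, so these means are given as descriptions with no test.

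**Figure D2:**
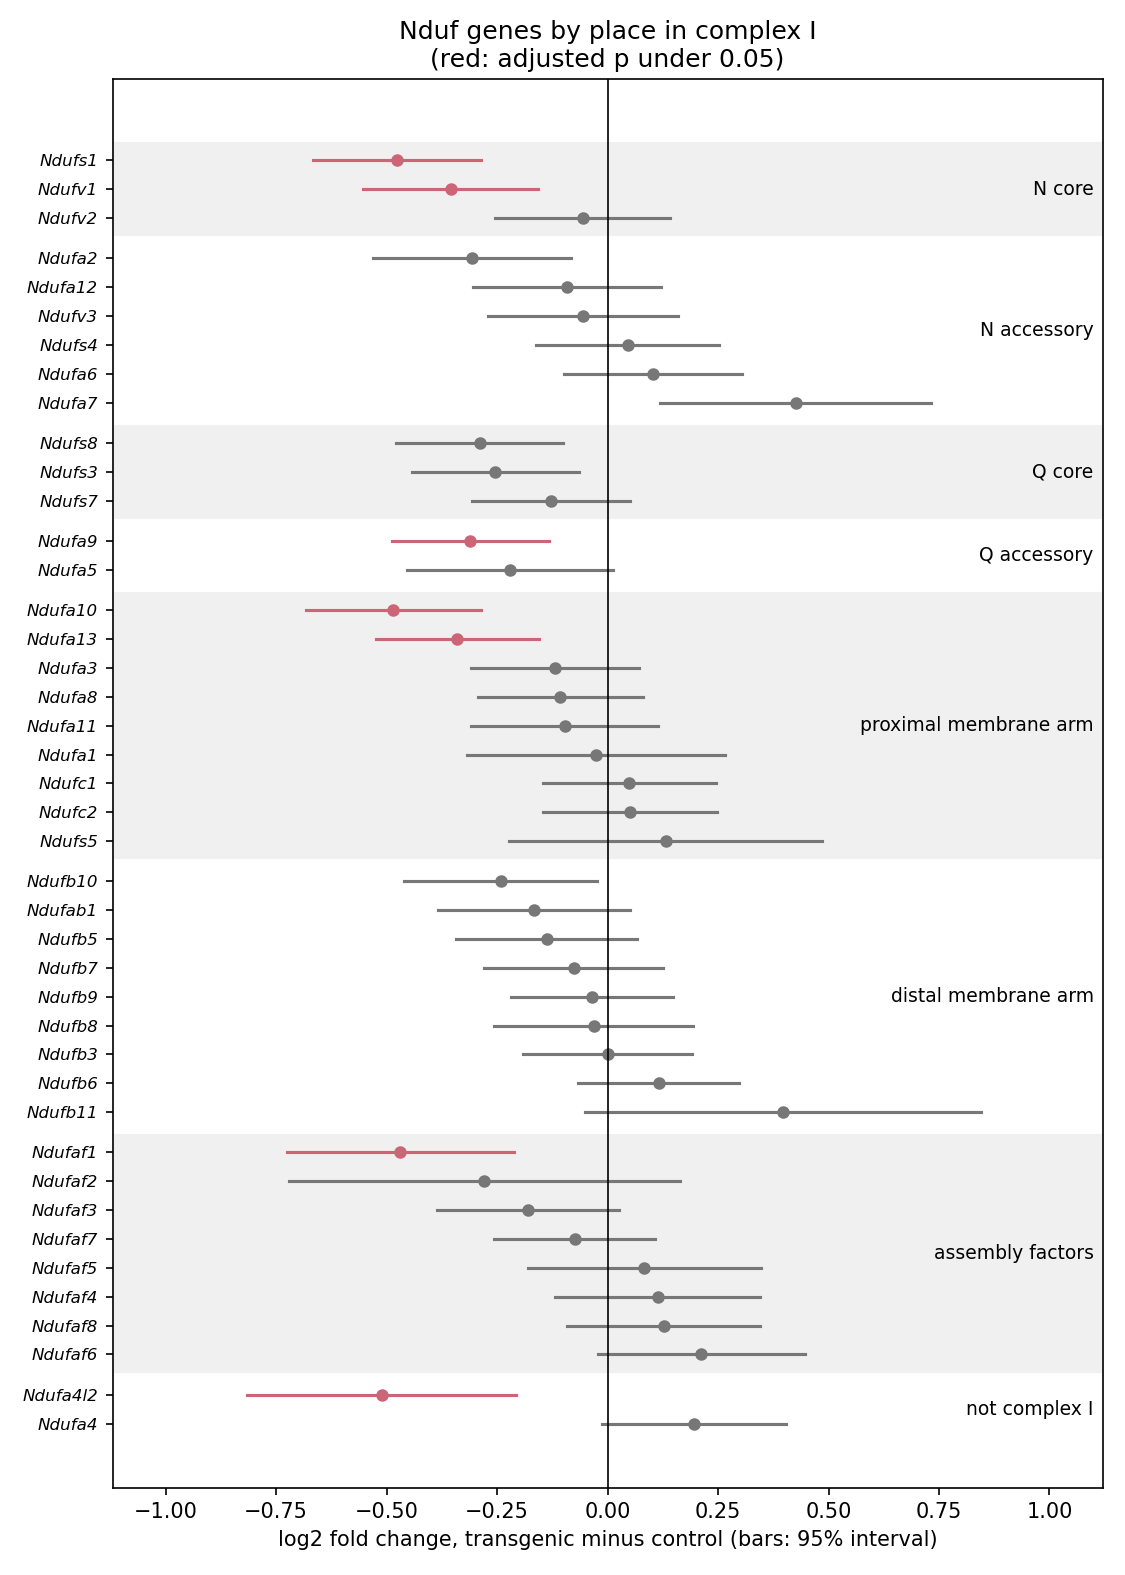
Log2 fold change, transgenic minus control, of each of the 42 Nduf genes (horizontal axis) with its 95% interval, grouped by place in the complex, with genes past an adjusted p of 0.05 in red. The points of the core subunits and of the Q module all lie left of 0, while the distal membrane arm and the assembly factors lie on both sides.

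In the proximal membrane arm 2 of 9 measured subunits fell (22.2%), where 5.76% of all genes and 15.5% of the brightest 5% fell. Ndufa10, an accessory subunit with a fold like that of nucleoside kinases, had 12.03, 12.02 and 12.07 in the controls and 11.45, 11.59 and 11.64 in the transgenic hearts. The controls were tight, and transgenic 1 was the lowest sample. The difference was -0.48 (SE 0.087, 95% interval -0.68 to -0.29, limma adjusted p = 0.00927), or 71.5% of the control level. Ndufa10 passed in all 14 alternative analyses, with differences from -0.52 to -0.37.

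Ndufa13, also called GRIM-19 and described as a partner of the transcription factor STAT3, had 11.55, 11.55 and 11.49 in the controls and 11.23, 11.20 and 11.14 in the transgenic hearts. The gap between the groups was wider than the range within either. The difference was -0.34 (SE 0.081, limma adjusted p = 0.0306), or 79.0% of the control level. It no longer passed without control 1 or 2 (adjusted p = 0.0944 and 0.0744) or without transgenic 1, 2 or 3 (0.0777, 0.0965 and 0.0994). The other 7 subunits of this part lay between -0.12 for Ndufa3 and 0.13 for Ndufs5, both accessory subunits.

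Of the 9 measured subunits of the distal membrane arm 0 passed the limma test (1 was lower at an unadjusted p under 0.05), and the median difference was -0.04. The lowest was Ndufb10, an accessory subunit, at -0.24 (95% interval -0.46 to -0.02, limma adjusted p = 0.152). Ndufab1, the mitochondrial acyl carrier protein, which also serves fatty acid synthesis, had -0.17 (limma adjusted p = 0.327). The highest was Ndufb11, an X-linked accessory subunit, at 0.40 (limma adjusted p = 0.254). Its controls were 6.60, 6.49 and 5.76 and its transgenic values 6.74, 6.72 and 6.57, so that the difference came with 1 low control, control 3, and overlapping groups. Ndufb3, another accessory subunit, was level in both groups at 7.27 (95% interval of the difference -0.19 to 0.19).

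The subunits were compared with the assembly factors by counts and medians. Of 32 subunits 5 fell (15.6%) and 24 had negative differences, with a median of -0.09. Of 8 Ndufaf genes 1 fell (12.5%) and 4 had negative differences, with a median of 0.00. Of all 22180 genes 5.76% fell and 12567 had negative differences. Of the 9418 genes at least as bright as the dimmest subunit, 10.6% fell and 4604 had negative differences. The subunit median stayed below 0 under both changes of scaling, at -0.04 after quantile normalization and -0.09 after centring the arrays. The assembly factor median changed sign with the former, to -0.01. With only 8 factors, most of them dimmer than the subunits, these figures do not show that the classes differ.

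Ndufaf1, a member of the mitochondrial complex I assembly complex that builds part of the proximal membrane arm, was the assembly factor that fell. It had 9.34, 9.20 and 9.13 in the controls and 8.92, 8.56 and 8.78 in the transgenic hearts. The groups did not overlap, and transgenic 2 was the lowest. The difference was -0.47 (SE 0.11, limma adjusted p = 0.0315), or 72.2% of the control level. It no longer passed without control 1 or 2 (adjusted p = 0.104 and 0.0636) or without transgenic 2 or 3 (0.109 and 0.0803).

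The other Ndufaf genes act at various steps, and 0 of these 7 passed the limma test or had an unadjusted p under 0.05. Ndufaf2, a paralog of the subunit Ndufa12 that acts when the N module is attached, had a difference of -0.28 with a wide 95% interval of -0.72 to 0.16. Ndufaf3 and Ndufaf4, partners in building the Q module, had -0.18 and 0.11. Ndufaf5, which hydroxylates Ndufs7, and Ndufaf8, which stabilises Ndufaf5, had 0.08 and 0.13. Ndufaf6, needed for the part around the mitochondrially encoded ND1, had 0.21 (limma adjusted p = 0.243), and its transgenic values of 7.83, 7.72 and 7.77 all lay above the controls of 7.63, 7.68 and 7.37. Ndufaf7, an arginine methyltransferase of the mitochondrial matrix, had -0.07.

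Assembly factors without the Nduf name were listed separately. Of 11 measured, 1 fell and 0 rose in the limma test, with 1 each way at an unadjusted p under 0.05. Of these 11, 10 had negative differences, and the median was -0.14. Of all 22180 genes 5.76% fell and 12567 had negative differences. The gene that fell was Ecsit, a partner of Ndufaf1 in the same assembly complex that is also known from innate immune signalling. Ecsit went from a mean of 8.72 to 7.99, a difference of -0.73 (SE 0.11, limma adjusted p = 0.00378), beyond that of any Nduf gene, and it passed in all 14 alternatives. The other partners in that complex, Acad9 and Tmem126b, had -0.19 (limma adjusted p = 0.228) and -0.27 (limma adjusted p = 0.350). Tmem126b passed in 1 of the 14 alternatives, without control 3, at -0.48 (adjusted p = 0.0195). Its differences over all 14 ranged from -0.48 to -0.15, with adjusted p up to 0.627. Lyrm2, a LYR-motif protein, had 0.50 (limma adjusted p = 0.122).

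Ndufa4 and Ndufa4l2 are related genes outside complex I. Ndufa4 is now counted as a subunit of complex IV, and Ndufa4l2 is a hypoxia-induced paralog that lowers the activity of complex I and has been described in brain as a gene of pericytes. Ndufa4l2 had 7.36, 7.45 and 7.09 in the controls and 6.59, 7.01 and 6.78 in the transgenic hearts. The groups were adjacent without overlapping. The difference was -0.51 (SE 0.13, limma adjusted p = 0.0428), or 70.2% of the control level. It no longer passed without control 1 or 2 (adjusted p = 0.122 and 0.109) or without transgenic 1 or 3 (0.144 and 0.112). Of the 7 smooth muscle and pericyte markers, Rgs5 fell by 0.65, Kcnj8 fell by 0.68, Acta2 fell by 0.52 and Pdgfrb fell by 0.38. Tagln and Myh11 had differences of -0.19 and -0.08 that did not pass. The pericyte marker Cspg4 had a positive difference of 0.33 with all transgenic values above the controls (limma adjusted p = 0.0606), and it passed in 4 of the 14 alternatives. Kcnj8 passed in all 14, Rgs5 in 13 (adjusted p = 0.0710 with the mean of a gene's probes), Acta2 in 11 and Pdgfrb in 7. The part of pericytes in the Ndufa4l2 value was not tested. Ndufa4 had 12.32, 12.30 and 12.11 in the controls and 12.40, 12.41 and 12.50 in the transgenic hearts. Each transgenic value was higher, with a difference of 0.20 that did not pass (95% interval -0.01 to 0.40, limma adjusted p = 0.225).

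**Figure D3:**
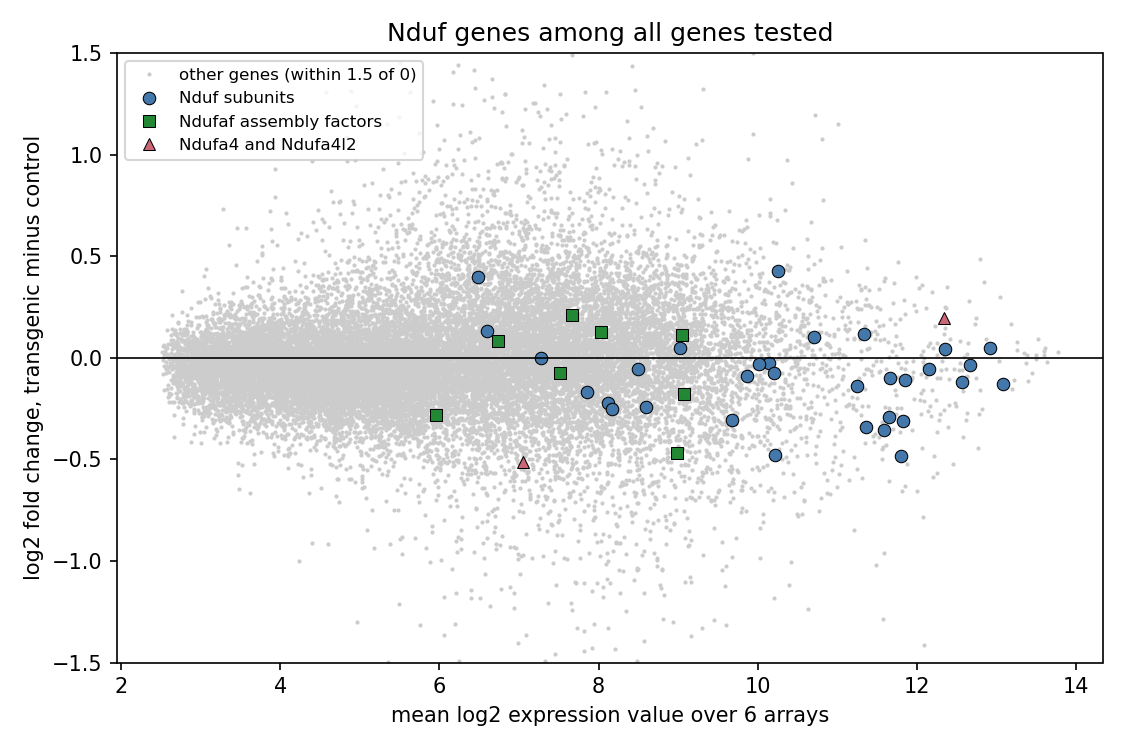
Log2 fold change, transgenic minus control (vertical axis), against the mean log2 expression value over 6 arrays (horizontal axis), 1 point per gene, with other genes beyond 1.5 in either direction not drawn. Most Nduf subunits lie toward the bright end and between -0.48 and 0.43, a band that is well filled by other genes.

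Promoters are shown for the called members with the largest differences that the RefSeq promoter table (GRCm38.p6) holds. Whether these genes share a control was not tested. The table held 37 of the 42 members. Ndufs1, Ndufa4l2, Ndufa2, Ndufaf6 and Ndufb9 had no entry used here. Ndufa9 is added because a motif was found in it, and Ndufa4 as a bright member that did not fall. Each sequence runs 5′ to 3′ on the strand of the gene, from 250 bases before to 50 bases after the annotated start. Capitals mark matches, on either strand, to the GABP motif CCGGAAG, the YY1 motif AAGATGGC, the NRF1 motif CGCATGCG or the ERR half-site AAGGTCA, sites of factors known to act on nuclear respiratory genes. Ndufa10 lies at chr1:92473709-92474008 on the minus strand, Ndufaf1 at chr2:119662785-119663084 (minus), Ndufv1 at chr19:4012706-4013005 (minus), Ndufa9 at chr6:126849095-126849394 (minus) and Ndufa4 at chr6:11907401-11907700 (minus).
Ndufa10: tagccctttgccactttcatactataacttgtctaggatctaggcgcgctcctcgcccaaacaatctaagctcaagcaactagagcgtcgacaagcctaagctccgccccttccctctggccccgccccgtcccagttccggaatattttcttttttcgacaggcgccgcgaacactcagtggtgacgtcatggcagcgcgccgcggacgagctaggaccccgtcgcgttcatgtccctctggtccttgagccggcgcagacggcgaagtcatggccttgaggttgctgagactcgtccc
Ndufaf1: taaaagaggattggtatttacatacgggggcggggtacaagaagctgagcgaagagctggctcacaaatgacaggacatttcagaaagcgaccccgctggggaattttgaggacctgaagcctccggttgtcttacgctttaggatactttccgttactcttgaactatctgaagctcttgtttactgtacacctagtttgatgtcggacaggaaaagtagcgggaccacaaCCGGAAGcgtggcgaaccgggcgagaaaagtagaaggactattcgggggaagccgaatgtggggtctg
Ndufv1: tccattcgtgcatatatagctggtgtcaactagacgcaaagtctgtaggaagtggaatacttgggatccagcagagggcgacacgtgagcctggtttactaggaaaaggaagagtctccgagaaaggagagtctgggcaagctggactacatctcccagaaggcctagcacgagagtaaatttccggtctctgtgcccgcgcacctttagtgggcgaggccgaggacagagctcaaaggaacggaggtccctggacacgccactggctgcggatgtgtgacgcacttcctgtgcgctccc
Ndufa9: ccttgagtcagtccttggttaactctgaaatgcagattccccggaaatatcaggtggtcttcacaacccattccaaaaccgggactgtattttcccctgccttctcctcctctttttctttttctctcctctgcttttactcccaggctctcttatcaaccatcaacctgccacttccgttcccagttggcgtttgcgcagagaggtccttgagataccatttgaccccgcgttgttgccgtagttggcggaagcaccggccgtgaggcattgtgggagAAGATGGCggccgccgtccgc
Ndufa4: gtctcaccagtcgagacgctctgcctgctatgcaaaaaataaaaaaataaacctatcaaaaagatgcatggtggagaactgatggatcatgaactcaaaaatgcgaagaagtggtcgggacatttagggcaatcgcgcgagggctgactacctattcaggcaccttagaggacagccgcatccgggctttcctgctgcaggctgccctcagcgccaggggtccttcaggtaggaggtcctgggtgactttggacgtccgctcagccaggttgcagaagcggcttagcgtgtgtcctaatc

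In Ndufaf1 the GABP letters begin 18 bases before the start, and in Ndufa9 the YY1 letters begin 29 bases after it. None of the 4 motifs occurs in the windows of Ndufa10, Ndufv1 and Ndufa4. The 37 members in the table have 39 promoters. The GABP motif occurred in 6 of them (15.4%) against 8.86% of all 32851 promoters, and the YY1 motif in 7 (17.9%) against 2.75%. The NRF1 motif occurred in 4 (10.3%) against 1.87% and the ERR half-site in 1 (2.56%) against 4.72%. The YY1 set was Ndufa3, Ndufa9, Ndufaf8, Ndufb8, Ndufc1, Ndufs4 and Ndufs7. Of the 5 called members in the table, 1 held the GABP motif, 1 the YY1 motif and 0 either of the others. The letters were settled after matches of several spellings in the members' promoters had been seen, which can raise the members' shares. The shares were not tested, and a match is a description of letters only.

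Of 12 regulators of nuclear respiratory genes, 2 fell (16.7%) and 1 rose (8.33%), where 5.76% of all genes fell and 5.35% rose. At an unadjusted limma p under 0.05, 4 of the 12 were lower and 2 higher. Perm1, a muscle regulator that acts with PGC-1 and ERR, fell by 0.41 and Esrrb, an estrogen-related receptor with a dim probe, fell by 0.50. Ppargc1b, the coactivator PGC-1 beta, rose by 0.41. Its paralog Ppargc1a had a difference of -0.28, with all transgenic values below the controls, that did not pass (limma adjusted p = 0.171). The calls of Perm1 and Ppargc1b held with control 3 left out and were lost without any other array, at adjusted p from 0.0893 to 0.109 and from 0.0770 to 0.140. Gabpa, Yy1 and Nrf1, whose motifs were searched, had differences of 0.22, -0.05 and 0.10 that did not pass (limma adjusted p = 0.185, 0.746 and 0.519). For the ERR half-site, the further receptors Esrra and Esrrg had -0.21 and 0.18, also without passing (limma adjusted p = 0.160 and 0.218). All transgenic values lay below the controls for Esrra and above them for Esrrg. Complex I also depends on iron-sulfur cluster supply. Of 10 genes measured in that list, Iscu, the scaffold on which clusters form, fell by 0.41 and Lyrm4, which stabilises the cysteine desulfurase, rose by 0.57. Lyrm4 passed in all 14 alternatives, while Iscu was lost without any array but control 3 (adjusted p from 0.0737 to 0.116).

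The other respiratory complexes give the setting. Of 44 subunit genes of complexes II to V, 4 fell (9.09%) and 4 rose (9.09%), with a median of -0.07. Of all genes tested 5.76% fell and 5.35% rose. Of those at least as bright as the dimmest Nduf subunit, 10.6% fell and 9.11% rose. With 1 array left out, 1 to 3 fell and 1 to 3 rose. In complex II, 1 of 4 genes fell. Sdha, the flavoprotein, fell by 0.30 (limma adjusted p = 0.0412). In complex III 2 of 8 fell. Uqcrc1, a core protein, fell by 0.56, and Uqcrfs1, the Rieske iron-sulfur protein, fell by 0.36. In complex IV 1 of 17 fell and 3 rose, where Cox7a1, the heart and muscle isoform, fell by 0.39 and Cox6a1, an isoform found in most tissues, rose by 0.48 (limma adjusted p = 0.0408 and 0.00778). Cox8a and Cox7c also rose, by 0.35 and 0.41 (limma adjusted p = 0.0357 and 0.0451). With 1 array left out, 1 to 2 genes of complex IV rose. The 17 do not include Ndufa4. In complex V 1 of 15 rose, Atp5o, a stalk subunit, by 0.46, and 0 fell (limma; 1 lower at an unadjusted p under 0.05). Among 71 mitochondrial ribosomal proteins 9 fell (12.7%) and 0 rose (limma; 3 higher at an unadjusted p under 0.05), with a median of -0.08. Among them Mrpl38 fell by 0.56 and Mrpl37 fell by 0.55. With 1 array left out, 4 (without control 1, transgenic 1 or transgenic 2) to 10 (without control 3) of them fell, and without control 2 there were 2 that rose. Uqcrc1, Cox6a1, Mrpl38 and Mrpl37 passed in all 14 alternatives. Sdha was lost without any 1 array (adjusted p from 0.0683 to 0.122), Uqcrfs1 (0.0573 to 0.111) and Cox7a1 (0.0771 to 0.141) without any but control 3, and Atp5o (0.0599 to 0.0749) without control 1, transgenic 1 or transgenic 2. The Nduf subunits, with 15.6% lower and 0 higher, were not tested against these groups.

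**Figure D4:**
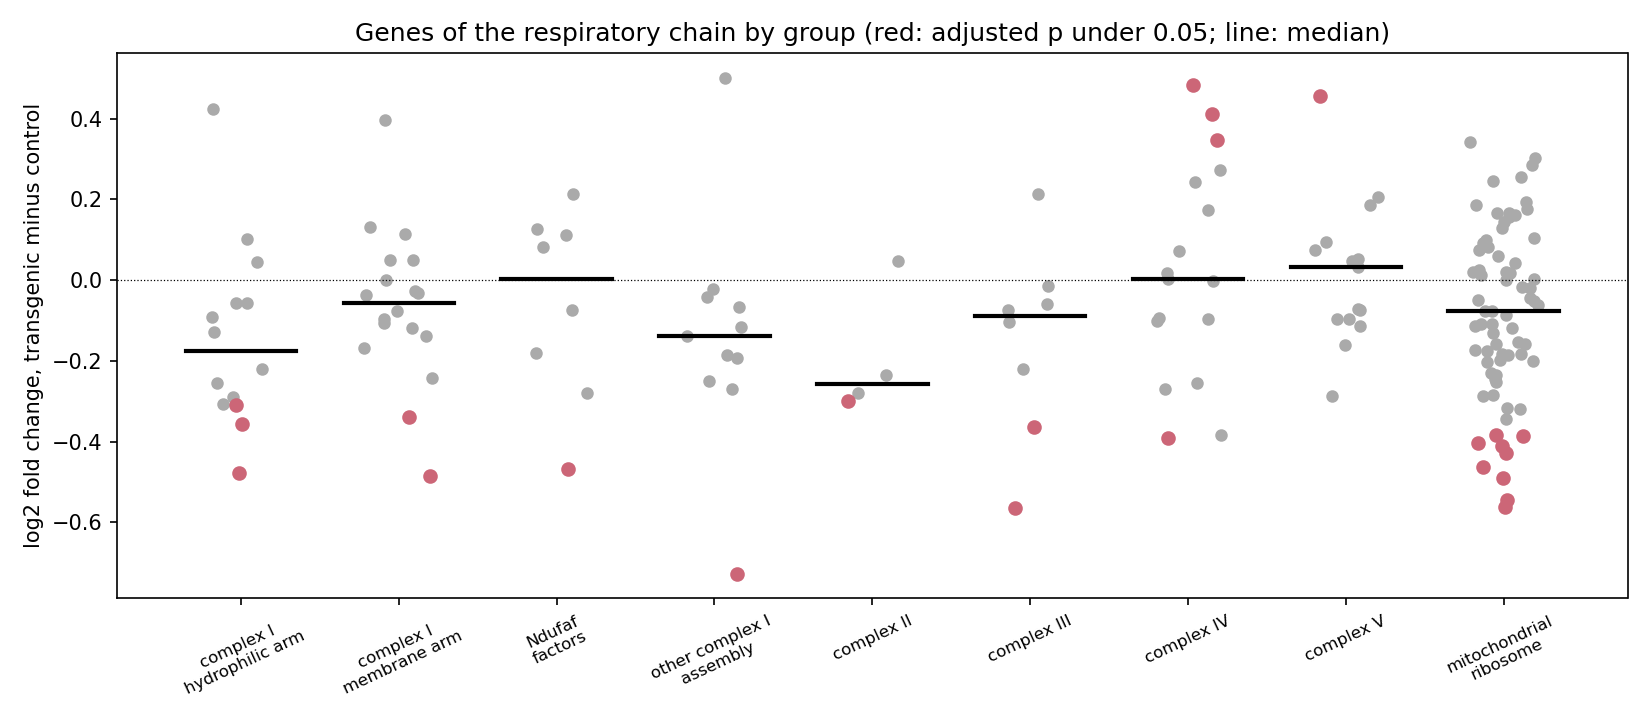
Log2 fold change, transgenic minus control (vertical axis), of single genes grouped by respiratory complex, complex I assembly or mitochondrial ribosome, with genes past an adjusted p of 0.05 in red and the group median as a black line. The points of complex I in red all lie below 0, as do those of complexes II and III and of the mitochondrial ribosome, while complexes IV and V hold red points above 0.

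For 3 members a second, dimmer probe was on the array. In the fit of every probe, Ndufa8, an accessory subunit of the proximal arm, had -0.11 at its main probe and 0.21 at the dim one, and neither passed (limma adjusted p = 0.486 and 0.660). Ndufa12 had -0.09 and -0.18, and Ndufa11 had -0.10 and -0.02, also without passing.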

How the data were processed

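Gene expression in 6 mouse heart samples, 3 control and 3 transgenic, was taken from 1 table of deposited log2 expression values, 1 per probe and array. Per the submitters' processing notes the tools were oligo, RMA and limma, with no version or role stated. How background was corrected and whether probes were filtered is not given in the sources used here. Platform annotation gave 1 gene symbol to 23521 of 41345 probes, several to 1814 and none to 16010, and only the first were used. Per gene the probe with the highest mean over the 6 arrays was kept, giving 22180 genes. No symbol changed when gene identifiers were looked up in RefSeq (GRCm38.p6).

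Groups came from the sample titles. The test was that of limma 3.58.1 (R 4.3.3), with lmFit and eBayes on group alone and no filter, with Benjamini-Hochberg adjustment over all genes and a threshold of 0.05. With 6 arrays, 4 residual degrees of freedom remain, and their number limits the precision. The fit was tested on simulated data with independent noise and no shifts of whole arrays. The outcome is not reported here. Members, module lists, marker lists and the rule for named genes were chosen with earlier results of these data known. The rule names all Ndufaf genes, Ndufa4, Ndufa4l2, called members, the extremes of each module, and up to 3 called genes of each other list. Genes named beyond it, and the comparison with the brightest 5% of genes, were chosen after values were seen. Lists are described by counts and medians, with no set test. The letters of the promoter motifs were settled after matches of several spellings in the members' promoters had been seen, so the motif shares are descriptions only.

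The 14 alternatives left out the dimmest genes (those up to the 33.3 percentile of means), took a gene's mean over its probes, fitted every probe separately, applied quantile normalization, centred arrays on their median, used an intensity trend with robust estimation, array weights or the replicate number as a block, or left out each array in turn.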

Additional observations from a re-analysis of the deposited data

How the results depend on the processing

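The direction of all 7 called members held in all 14 alternatives. Ndufs1 and Ndufa10 passed in all 14, Ndufaf1 and Ndufa4l2 in 10, Ndufa13 in 8, Ndufv1 in 6 and Ndufa9 in 5. The count of called members, 7 as reported, was 12 with an intensity trend and robust estimation (11 lower, with 10 subunits among the 12), and ranged from 2 to 6 when 1 array was left out, 2 without control 1, control 2 or transgenic 3 and 3 without transgenic 1 or transgenic 2. Called subunits then numbered 2 to 4 in place of 5, and called Ndufaf factors 0 to 1. With renewed quantile normalization 6 members were called, 5 of them lower, and 4 subunits, 3 of them lower. Ndufa7 was called higher with that normalization and with the intensity trend (adjusted p = 0.0457 and 0.0303). Over all genes there were 2465 calls, and leaving out control 1 gave 1378, while leaving out transgenic 1, 2 or 3 gave 1217, 1171 or 1553. The subunit median of -0.0946 was -0.0399 with renewed quantile normalization and -0.147 to -0.0631 with 1 array left out, the lowest being without control 3. The Ndufaf median ranged from -0.06 to 0.04. The cause of these changes was not tested.

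The replicate numbers are shared by the groups. Same-numbered samples deviated from their group means with correlations of 0.02, -0.13 and 0.01, and unlike-numbered samples with correlations from -0.11 to 0.11. With 3 samples per group these values cannot show whether or not the numbers pair the samples. With the replicate block 4 members and 2 subunits passed, Ndufa13, Ndufa9 and Ndufv1 being lost (adjusted p = 0.0622, 0.0801 and 0.0542). No gene lay at a detection limit that could be read here, since the table holds no detection calls.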
